A study of Mus musculus with 6 samples.

Results

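The genes described are 10 transporters that carry organic anions, peptides, monoamines and drugs across cell membranes: Slc22a8, Slco1a5, Slco2b1, Slco2a1, Abcc1, Abcc4, Abcc5, Abcg2, Slc15a2 and Slc29a4. They were chosen by symbol, as the probe sets annotated with 1 of these names and no other, which gave 30 probe sets for 10 of 18193 named genes. They were measured in choroid plexus epithelium taken from whole mouse brain, on 6 single-colour oligonucleotide arrays of total RNA. The mice were B10.PL wild type (WT, 3 arrays) or RAG-/- on the B10.PL strain (3 arrays), where RAG stands for the recombinase that joins antigen receptor genes in lymphocytes. The labels do not say which RAG gene was disrupted, nor give age, sex or the number of animals per preparation, so the spread between arrays may be partly technical. Each array is named by the genotype in its sample description. A code in the titles joins 1 array of each genotype into 3 pairs, and pair 1 holds replicate 1 of both groups, pair 2 replicate 2 and pair 3 replicate 3. In pair 1 the description states that the samples had been reversed and contradicts both titles, so differences are also given with the genotype of the titles, where WT replicate 1 and RAG-/- replicate 1 change places.

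The choroid plexus makes cerebrospinal fluid and forms the barrier between that fluid and the blood, whose capillaries in this tissue are leaky. Its epithelial cells clear organic anions, peptides and drug conjugates. Uptake carriers of the SLC22, SLCO and SLC15 families bring such compounds into the cell, and ATP-driven pumps of the ABC families push them out. Several of these genes are also active in the endothelium of brain capillaries, in macrophages or in neurons, so that a tissue sample holds their transcripts from more than 1 cell type.

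Values are log2(intensity + 16) after quantile normalization, and all signs are RAG-/- minus WT. The tissue label was checked against marker genes: 13 of 15 epithelial markers were found by symbol, and their mean ran from 12.75 to 13.77 over the arrays, above the mean of every other marker list on each array. Markers of brain tissue were present too, with array means from 8.95 to 12.17 for neurons and from 9.82 to 11.82 for oligodendrocytes. RAG-/- replicate 2 had the lowest epithelial mean (12.75) and the highest neuron mean (12.17). Rag1 and Rag2, the genes of the recombinase, were both dim, and the labels used here do not say which was disrupted. Rag1 was at 6.54, 6.92 and 6.31 in the arrays titled RAG and at 4.60, 4.16 and 4.35 in those titled WT, and Rag2 at 4.46, 4.87 and 5.99 and at 5.55, 4.67 and 7.14 in the same order. The mean of the arrays titled RAG was higher for Rag1 and lower, with overlap, for Rag2, and directions below refer to arrays as labelled. The Y-linked Eif2s3y was at 9.47 and 9.76 in RAG-/- replicates 1 and 3 and between 4.19 and 5.76 elsewhere, so Y-linked signal is in 2 of 3 RAG-/- arrays and 0 of 3 WT arrays by description, and in 1 array of each genotype by title.

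Promoter sequences, from 250 bases before to 50 bases after a start, were taken from RefSeq (GRCm38.p6), which held 15 starts for 9 of the 10 genes. They are shown for Slc29a4 and Abcc4, which had the highest signal on 5 of 6 arrays between them once suffixed probe sets were set aside, for Slc22a8, which had the largest difference by description, and for Abcc5, which was highest on the array where most of the others were lowest. Each is 5′ to 3′ on the gene's strand, and capitals mark GCGTG (the core recognised by the aryl hydrocarbon receptor Ahr), the TATA box as TATAAA, the CCAAT box and the Otx site as TAATCC, on either strand. In the order Slc29a4, Abcc4 (1 of its 2 listed starts), Slc22a8 and Abcc5, the windows are chr5:142701851-142702150 (plus strand), chr14:118706170-118706469 (minus strand), chr19:8592932-8593231 (plus strand) and chr16:20426345-20426644 (minus strand).
Slc29a4: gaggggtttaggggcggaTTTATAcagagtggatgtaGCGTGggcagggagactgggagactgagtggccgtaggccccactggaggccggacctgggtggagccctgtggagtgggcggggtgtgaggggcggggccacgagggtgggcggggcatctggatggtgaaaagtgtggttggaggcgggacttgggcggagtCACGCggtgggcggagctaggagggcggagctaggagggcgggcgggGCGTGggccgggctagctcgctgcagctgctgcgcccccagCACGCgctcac
Abcc4: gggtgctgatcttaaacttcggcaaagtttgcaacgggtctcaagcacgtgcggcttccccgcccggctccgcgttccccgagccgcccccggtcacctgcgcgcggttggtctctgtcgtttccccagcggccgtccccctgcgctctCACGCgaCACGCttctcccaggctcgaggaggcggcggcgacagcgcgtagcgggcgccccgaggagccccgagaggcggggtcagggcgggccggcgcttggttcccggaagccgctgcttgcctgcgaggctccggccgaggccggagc
Slc22a8: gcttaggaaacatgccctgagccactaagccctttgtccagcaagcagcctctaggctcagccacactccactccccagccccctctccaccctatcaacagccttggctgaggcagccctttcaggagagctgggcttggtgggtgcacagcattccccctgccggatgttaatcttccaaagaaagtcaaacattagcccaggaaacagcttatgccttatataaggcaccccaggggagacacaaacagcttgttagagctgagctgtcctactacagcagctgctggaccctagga
Abcc5: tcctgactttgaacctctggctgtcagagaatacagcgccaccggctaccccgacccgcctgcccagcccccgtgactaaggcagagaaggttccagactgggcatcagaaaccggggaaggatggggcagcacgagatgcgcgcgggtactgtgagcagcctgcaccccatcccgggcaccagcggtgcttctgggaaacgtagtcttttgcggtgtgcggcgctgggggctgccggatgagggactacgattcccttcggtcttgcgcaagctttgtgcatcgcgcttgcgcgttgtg
No matches overlapped in these windows, and those of Slc22a8 and Abcc5 held none of the 4 motifs as spelled here. The match to TATAAA in Slc29a4 lies at base 19 of the window, far from the start, and on the opposite strand. The Slc22a8 window holds tataag nearer its start, which the exact spelling leaves out. The windows of Slc29a4 and Abcc4 were rich in G and C (70.0% and 72.7%, with 22 and 41 CpG), against a median of 52.7% and 7.0 CpG over 32851 promoters, while that of Slc22a8 had 55.0% and 1 CpG. GCGTG was in 4 of the 15 windows (Slc29a4, Abcg2, Abcc4 and Slc15a2) and in 32.4% of all promoters, TATAAA in 6 of 15 and 13.6%, CCAAT in 3 of 15 and 37.4%, and TAATCC in 0 of 15 and 7.06%. Several windows belong to the same gene, and a match describes the letters alone.

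By their brightest probe sets, most of the transporters were bright on these arrays, and Slc29a4 was the brightest of the 10 on 6 of 6 arrays. Signal was ranked within each array as the percentile among all 45037 probe sets other than controls, with the brightest probe set standing for a gene. That choice raises the percentile of genes with several probe sets. With probe sets averaged, Slco2a1 lay at 42.0 and Slco2b1 at 40.9. Probe sets differ in how strongly they bind, so an order of signals is not an order of transcript numbers. The mean percentile was 99.3 for Slc29a4, 93.4 for Slc15a2, 93.3 for Abcc4, 90.7 for Abcc1, 86.5 for Slco1a5, 86.1 for Abcg2, 83.4 for Slc22a8, 81.2 for Abcc5, 63.5 for Slco2a1 and 62.1 for Slco2b1. Neighbours in this order changed places between arrays: Slc15a2 and Abcc4 held places 2 to 4, Abcg2 places 3 to 7 and Slc22a8 places 5 to 8. Slco2a1 and Slco2b1 held places 9 and 10 on every array.

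The first place of Slc29a4 depended on the probe set. Its brightest probe set has a name ending in _x_at, a suffix given to sets with probes that can match other transcripts, and those of Slc15a2 and Slco2b1 end in _s_at, given to sets shared by several transcripts. With such sets left out, a choice made after the data were seen, Abcc4 was first on 3 arrays, Slc29a4 on 2 and Abcc5 on 1, and the mean percentiles were 92.5 for Slc29a4, 83.0 for Slc15a2 and 44.6 for Slco2b1. Within the ABC pumps, Abcc4 was brightest on 5 of 6 arrays and Abcc5 on RAG-/- replicate 2. Among the 3 SLCO members, Slco1a5 was brightest on 6 of 6 arrays.

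**Figure D1:**
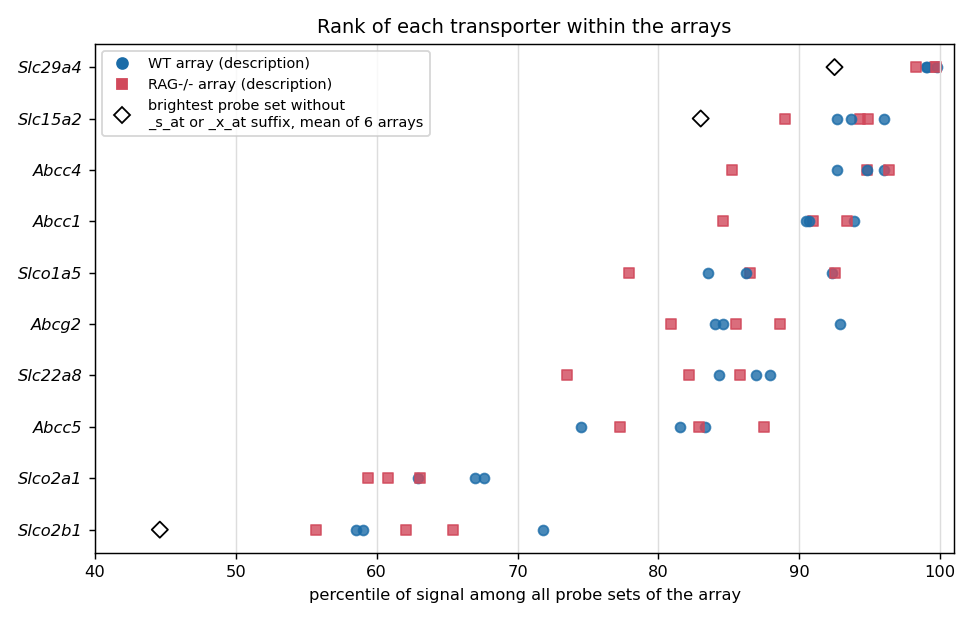
Percentile of signal among all probe sets of the array (x axis) for each of the 10 genes (rows, ordered by mean), with 1 point per array: circles are WT and squares RAG-/- by description, and open diamonds give the mean over 6 arrays of the brightest probe set without an _s_at or _x_at suffix. Slc29a4 lies between 98.3 and 99.8 on all arrays, but at 92.5 by its other probe set, and Slco2a1 and Slco2b1 lie below the remaining 8 genes.

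No member differed between RAG-/- and WT past the threshold. With limma, 0 of 10 genes and 0 of their 23 tested probe sets had an adjusted p under 0.05 by description or by title, where the same fits called 0.0% of all 27022 probe sets under either reading. With the pair as a block, 0 of 10 were called by description (0.0% of all) and 0 of 10 by title (0.0037% of all, the 1 probe set of Pttg1). The other 7 of the 30 probe sets lay in the dimmest 40% and were not tested. By description the adjusted p was 1.0 for each of the 10 genes, and the unadjusted p ran from 0.111 to 0.838, with 0 of 10 under 0.05 (0.711% of all probe sets). With the block 0 of 10 were under 0.05 by description (2.35% of all) and 2 of 10 by title (4.14% of all), Slc15a2 and Slc29a4. In samples of whole tissue, fewer cells of a type and less RNA per cell cannot be told apart.

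Among the uptake carriers for organic anions, Slc22a8 had the largest difference by description. Slc22a8, also known as OAT3, exchanges organic anions such as drugs and hormone sulfates against dicarboxylates. Its log2 signal was 10.40, 10.27 and 9.92 in WT replicates 1, 2 and 3 and 10.11, 8.70 and 9.65 in RAG-/- replicates 1, 2 and 3. RAG-/- replicate 2 was the lowest array by a wide margin, and the groups overlapped because RAG-/- replicate 1 lay above WT replicate 3. The difference by description was -0.71 (SE 0.40, 95% interval from -1.62 to 0.20, unadjusted p = 0.111), or 1.63-fold brighter in WT. It was -0.32 without RAG-/- replicate 2. By title the difference was -0.51 (SE 0.43), and the sign within pair 1 turned to 0.30. The other Slc22a8 probe set gave -0.68 by description and -0.05 by title, and was brightest in pair 3 (10.05 and 10.13) where the first was not.

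Slco1a5 takes up bile acids, steroid conjugates and thyroid hormones across the apical face of this epithelium. Its signal was 9.81, 10.16 and 11.16 in WT replicates 1, 2 and 3 and 10.20, 9.16 and 11.21 in RAG-/- replicates 1, 2 and 3. Pair 3 stood above the other pairs in both genotypes, and RAG-/- replicate 2 was again lowest. The difference was -0.19 (SE 0.56, 95% interval from -1.46 to 1.09) by description, 0.33 without RAG-/- replicate 2, and -0.45 (SE 0.54) by title. Its other probe set was among the dimmest 40%.

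Slco2b1, a carrier of steroid sulfates that macrophages and endothelium also express, was at 8.53, 7.28 and 7.33 in WT replicates 1, 2 and 3 and at 7.91, 7.60 and 7.07 in RAG-/- replicates 1, 2 and 3. On this probe set both arrays of pair 1 were above the other 4. The difference was -0.19 (SE 0.43) by description and 0.23 (SE 0.42) by title. Its other tested probe set, which has no suffix for shared probes, disagreed in part: WT replicate 2 (7.39) lay above RAG-/- replicate 1 (7.06), pair 2 differed by -1.31 where the first gave 0.31, and the difference was -0.60 by description and 0.02 by title. The macrophage marker mean was also highest in pair 1, at 9.69 and 9.51 against 7.56 to 8.58 elsewhere. So were the endothelial mean (9.35 and 8.85, against 7.93 to 8.62) and the pericyte mean (9.48 and 8.61, against 7.99 to 8.53). The part of these cell types in the level of Slco2b1 was not tested.

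Slco2a1, the prostaglandin transporter, was dim and varied least of the 10 genes, over a range of 0.75. It was at 8.12, 7.67 and 8.06 in WT replicates 1, 2 and 3 and at 7.48, 7.36 and 7.69 in RAG-/- replicates 1, 2 and 3. The RAG-/- array was lower in each of the 3 pairs by description, by -0.64, -0.31 and -0.37, and the groups overlapped narrowly, at 7.69 in RAG-/- replicate 3 and 7.67 in WT replicate 2. The difference was -0.44 (SE 0.29, 95% interval from -1.11 to 0.24, unadjusted p = 0.174) by description and -0.01 (SE 0.33) by title. Its other tested probe set went the opposite way, at 0.26 by description.

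By their brightest probe sets, the ABC pumps split into those lowest in RAG-/- replicate 2 and Abcc5, which was highest there. Abcc1, which exports glutathione conjugates, was at 10.85, 10.83 and 11.52 in WT replicates 1, 2 and 3 and at 10.92, 9.95 and 11.39 in RAG-/- replicates 1, 2 and 3. The arrays of pairs 1 and 3 lay close to their partners, with differences of 0.06 and -0.13 by description, against -0.87 in pair 2. The difference was -0.31 (SE 0.41) by description, -0.35 (SE 0.40) by title, and 0.09 without RAG-/- replicate 2 by description. The other Abcc1 probe set, which ends in _s_at and was dimmer, had another pattern. It was lowest in pair 3, at 6.61 in WT and 6.18 in RAG-/- replicate 3, with RAG-/- replicate 2 at 6.81. Its difference was -0.16 by description and -0.19 by title.

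Abcc4, which exports cyclic nucleotides, prostaglandins and urate, had the widest range of the 10 genes, 2.21. It was at 11.74, 11.23 and 12.10 in WT replicates 1, 2 and 3 and at 11.75, 10.03 and 12.24 in RAG-/- replicates 1, 2 and 3. The arrays of pairs 1 and 3 nearly coincided within the pair, with differences of 0.01 and 0.15 by description, against -1.20 in pair 2. The overall difference of -0.35 (SE 0.54) by description was 0.31 without RAG-/- replicate 2.

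Abcc5, another exporter of cyclic nucleotides that neurons also express, was at 9.57, 8.81 and 9.79 in WT replicates 1, 2 and 3 and at 9.09, 10.35 and 9.75 in RAG-/- replicates 1, 2 and 3. RAG-/- replicate 2 was highest and its partner, WT replicate 2, lowest. The difference was 0.34 (SE 0.42, 95% interval from -0.62 to 1.30) by description, 0.66 (SE 0.36, unadjusted p = 0.107) by title, and 0.03 and 0.43 in turn without RAG-/- replicate 2. Of the 10 Abcc5 probe sets, 7 were tested. Apart from the brightest and 1 other, these differed by 0.20, -0.09, -0.12, 0.08 and 0.13 by description. That other probe set gave 0.41 by description, with RAG-/- arrays at 9.24, 9.89 and 9.17 above WT arrays at 9.05, 9.01 and 9.03. By title it gave 0.28, and the groups overlapped. This probe set was the 1 of 23 tested member probe sets whose groups did not overlap by description, where 3.44% of all probe sets did not.

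Abcg2 pumps a broad set of drugs and conjugates and is abundant in brain capillary endothelium. It was at 11.27, 9.88 and 9.95 in WT replicates 1, 2 and 3 and at 10.52, 9.50 and 10.07 in RAG-/- replicates 1, 2 and 3. Pair 1 was high in both genotypes, and most of all in WT replicate 1. The difference was -0.34 (SE 0.45) by description and 0.16 (SE 0.46) by title, since WT replicate 1 changes sides.

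The carriers of peptides and monoamines were lower in the array titled RAG in every pair, as were 14.6% of all probe sets. By description pair 1 went the other way, at 0.37 for Slc15a2 and 0.44 for Slc29a4. Slc15a2, or PEPT2, takes up small peptides and peptide-like drugs from cerebrospinal fluid together with protons. It was at 11.24, 11.46 and 12.09 in WT replicates 1, 2 and 3 and at 11.61, 10.58 and 11.77 in RAG-/- replicates 1, 2 and 3. By title the pairs differed by -0.37, -0.89 and -0.32, a mean of -0.53 (SE 0.35, unadjusted p = 0.165) that was -0.22 without RAG-/- replicate 2. With the pair as a block the unadjusted p was 0.029 and the adjusted p 0.926. By description the difference was -0.28 (SE 0.38). The other 2 probe sets gave -0.14 and -0.26 by description and -0.50 and -0.46 by title.

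Slc29a4, also called PMAT, is a low-affinity carrier of serotonin, dopamine and other organic cations. It was at 13.61, 13.57 and 14.39 in WT replicates 1, 2 and 3 and at 14.05, 13.05 and 14.25 in RAG-/- replicates 1, 2 and 3. Pair 3 was highest, and the groups overlapped under either reading. By title the pairs differed by -0.44, -0.52 and -0.14, a mean of -0.37 (SE 0.33) that was -0.07 without RAG-/- replicate 2 (block unadjusted p = 0.0198, adjusted p = 0.926). The difference by description was -0.07 (SE 0.35). Its other probe set, which carries no suffix for shared probes, was at 12.03, 11.70 and 11.42 in the arrays titled WT and at 11.08, 10.23 and 11.21 in those titled RAG. Those groups did not overlap. Its difference by title was -0.88 (unadjusted p = 0.027, adjusted p = 1.0) and -0.59 without RAG-/- replicate 2 (unadjusted p = 0.0589). By description it was -0.25 (unadjusted p = 0.594), with 0.95 in pair 1, and 0.22 without RAG-/- replicate 2. This probe set was the 1 of 23 tested for members without overlap by title, where 4.78% of all probe sets had none, and the 1 of 23 with an unadjusted p under 0.05, where 1.23% of all had one.

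**Figure D2:**
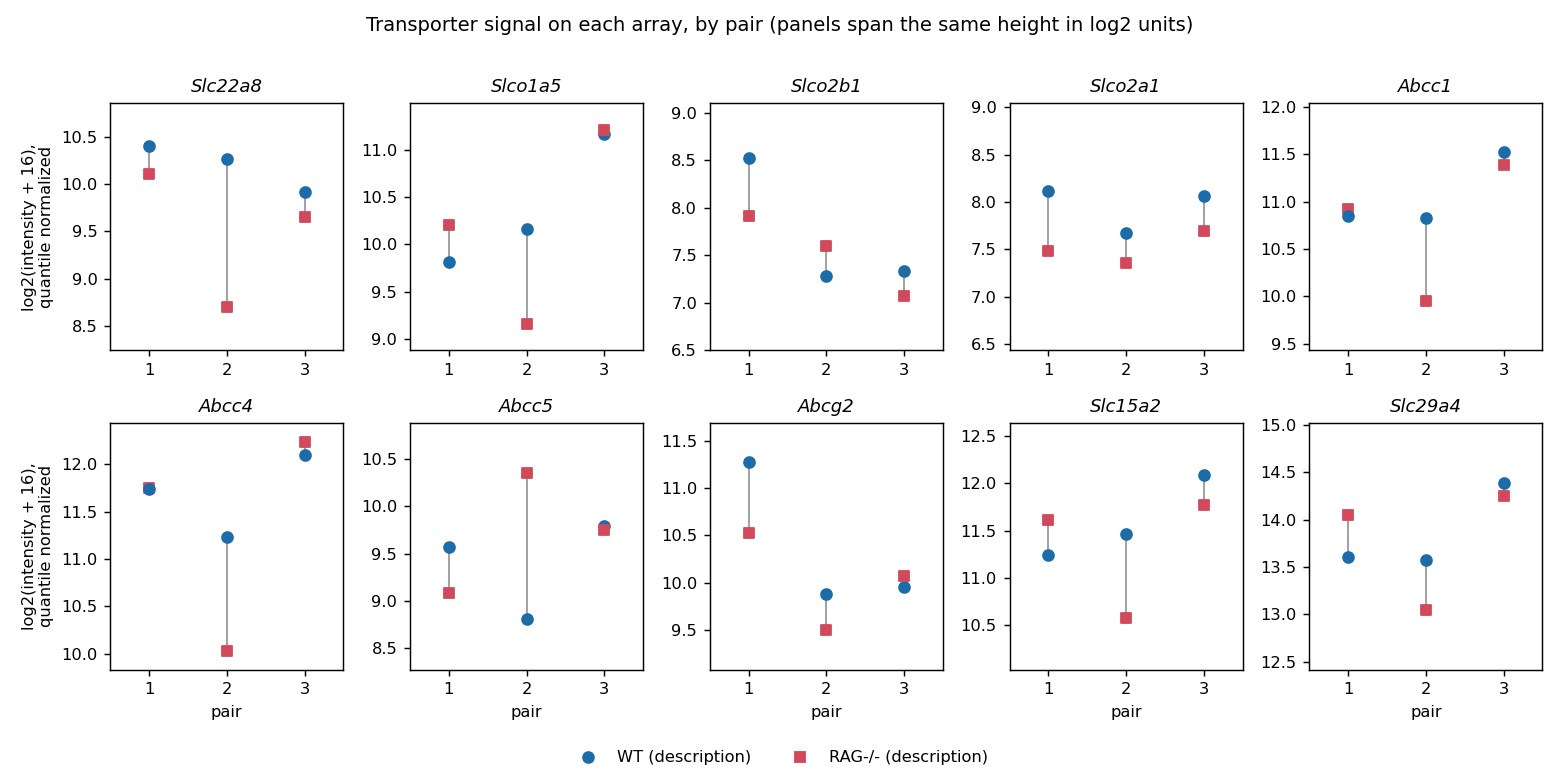
Log2 signal of each gene (y axis, log2(intensity + 16) after quantile normalization, every panel spanning the same height) on each array by pair (x axis). Circles are WT and squares RAG-/- by description, and grey lines join the arrays of a pair. Pair 3 is highest for Slco1a5 (11.16 and 11.21), pair 1 for Abcg2 (11.27 and 10.52), and the RAG-/- array of pair 2 is lowest for 8 of 10 genes.

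For 6 of the 10 genes, more of the spread lay between pairs than for the median probe set. A median has as many probe sets above it as below, so 6 of 10 is near the share over all probe sets. The share of a gene's variance over the 6 arrays that lay between the 3 pairs was 81.5% for Slco1a5, 80.9% for Slc29a4, 80.8% for Abcg2, 80.4% for Slco2b1, 77.4% for Abcc4 and 74.3% for Abcc1. It was 61.7% for Slc15a2, 31.7% for Slc22a8, 31.2% for Slco2a1 and 12.8% for Abcc5, against a median of 63.1% over all tested probe sets. The range over arrays was above the median range of tested probe sets, 1.12, in 9 of 10 genes, all but Slco2a1.

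By description 9 of 10 genes were lower in RAG-/-, with a median difference of -0.30, where the median over all tested probe sets was -0.01 and 14023 of 27022 were lower. By title 7 of 10 were lower, with a median of -0.36 and -0.03 over all, where 14534 of 27022 were lower. Over the tested probe sets of members, 17 of 23 were lower by description (median -0.19) and 15 of 23 by title (median -0.08). The counts of genes rested on RAG-/- replicate 2. Without it, 4 of 10 were lower by description (median 0.06, and 0.02 over all) and 3 of 10 by title (median 0.10, and -0.01 over all). The RAG-/- array was lower in all 3 pairs in 2 of 10 genes by description, Slc22a8 and Slco2a1, where 11.5% of all probe sets were, and in 3 of 10 by title, Abcc1, Slc15a2 and Slc29a4, where 14.6% were. Counted over tested probe sets of members, as the shares are, it was 2 of 23 by description and 7 of 23 by title. The other tested probe sets of Slc22a8 and Slco2a1 were not lower in all 3 pairs by description. The 2 readings share pairs 2 and 3, so they are not independent.

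**Figure D3:**
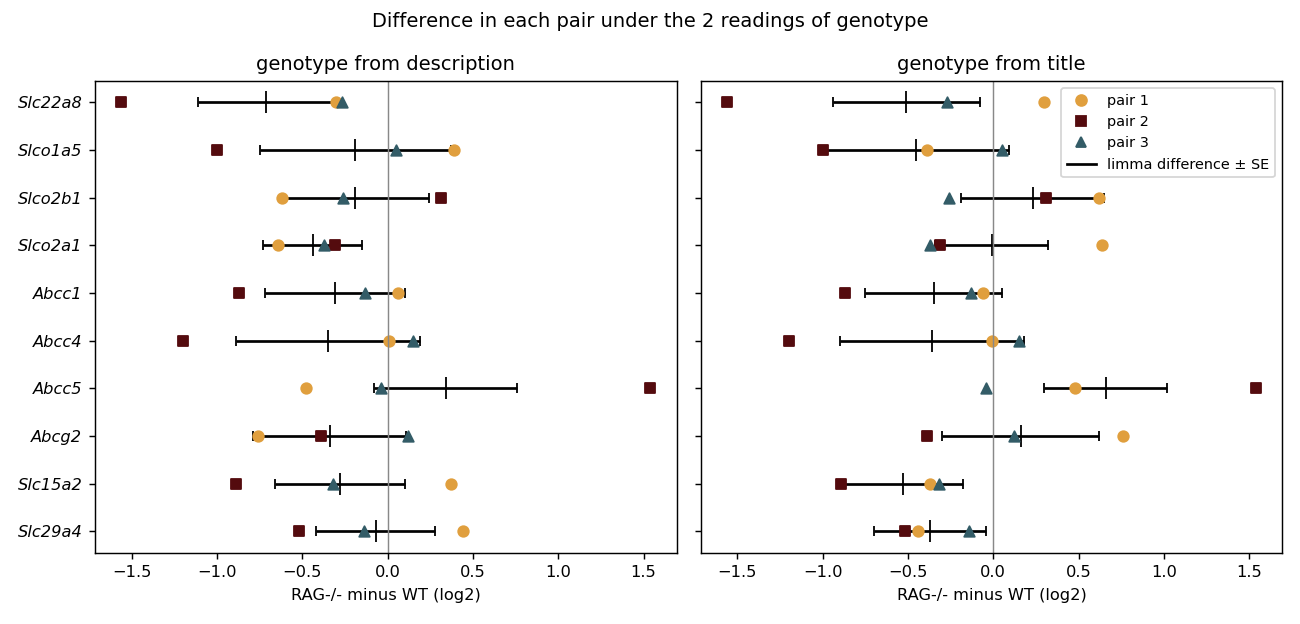
Difference RAG-/- minus WT (x axis, log2) of each gene (rows) in pairs 1, 2 and 3 (circles, squares, triangles), with the limma difference and its SE as a bar, for genotype from description (left) and from title (right). Pair 2 has the largest difference in size in 7 of 10 genes by description and runs from -1.56 for Slc22a8 to 1.54 for Abcc5, and no gene passed the threshold in either panel.

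Markers of several cell types also differed between the arrays, and the transporters followed them only in part. RAG-/- replicate 2 was the lowest array for 8 of 10 genes, where it was lowest for 29.0% of all tested probe sets. On that array the 13 epithelial markers averaged 12.75 against 13.50 to 13.77 elsewhere, the 10 fibroblast markers 9.51 against 10.84 to 12.05, and the 10 neuron markers 12.17 against 8.95 to 11.00. The epithelial mean was highest in RAG-/- replicate 1 (13.77), while Abcc1, Abcc4, Slco1a5, Slc15a2 and Slc29a4 were highest in arrays of pair 3. The astrocyte (12.32) and oligodendrocyte (11.82) means were also highest on RAG-/- replicate 2. In pair 2 the epithelial mean differed by -0.93 and the neuron mean by 1.17, beside -1.56 for Slc22a8, -1.20 for Abcc4, -1.00 for Slco1a5 and 1.54 for Abcc5. Abcc5 did not follow the neuron mean on the other arrays. WT replicate 2 had a neuron mean of 11.00 and the lowest Abcc5 (8.81). Pair 3 had the lowest neuron means (9.54 and 8.95), with Abcc5 at 9.79 and 9.75. By description 13 of 13 epithelial markers were lower (median -0.19), but their list mean differed by 0.27, -0.93 and 0.07 in pairs 1, 2 and 3. Fibroblast markers were lower in 10 of 10 by description (median -1.05, with 4 at an unadjusted p under 0.05). By title these were also lower in 10 of 10 (median -0.43), but pair 1 was at 0.99 and 0 were under 0.05. By description 9 of 9 oligodendrocyte markers were higher (median 1.08, with pair 1 at -0.48). In these lists 0 markers passed the threshold. By title the oligodendrocyte markers were again 9 of 9 higher, with a median of 1.24, 9 at an unadjusted p under 0.05 and list means higher by 0.48, 1.36 and 1.93 in pairs 1, 2 and 3, and 0 passed the threshold. WT replicate 1 was highest for 4 of 10 genes by their brightest probe sets, Abcg2, Slco2b1, Slco2a1 and Slc22a8, and for 10.1% of all tested probe sets. The other tested probe set of Slco2b1 was highest there too, but those of Slco2a1 and Slc22a8 were highest in RAG-/- replicate 3. WT replicate 1 also had the highest means of endothelial (9.35), pericyte (9.48), fibroblast (12.05) and macrophage (9.69) markers, against highest values elsewhere of 8.85, 8.61, 11.47 and 9.51. The part of these cell types in the transporter values was not tested.

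**Figure D4:**
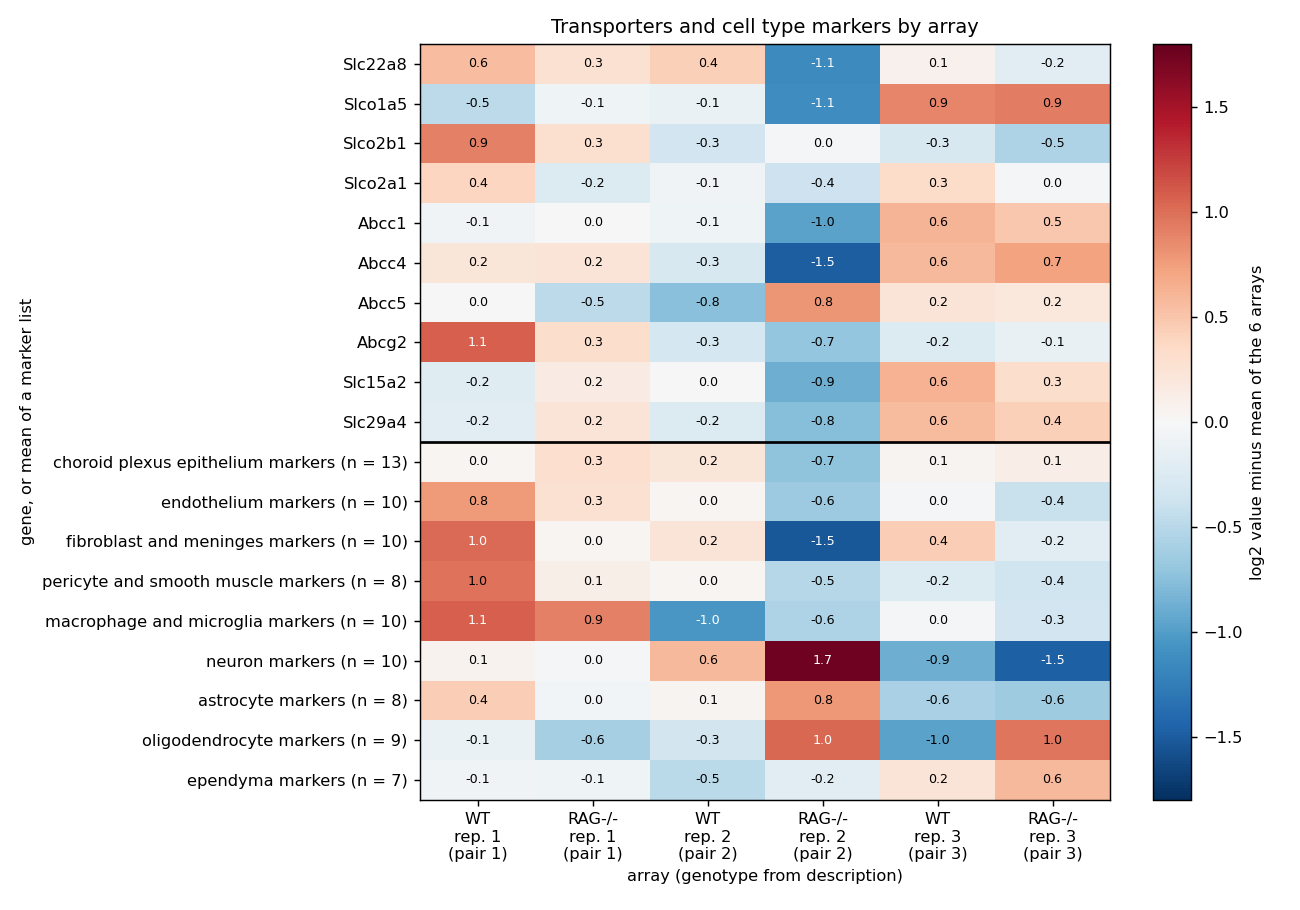
Log2 value minus the mean of the 6 arrays (colour and number) for the 10 genes (above the line) and for the means of 9 marker lists (below it, n is the number of genes averaged), by array with genotype from description. In the column of RAG-/- replicate 2, Abcc4 and the fibroblast markers are lowest, and Abcc5 and the neuron, astrocyte and oligodendrocyte markers are raised. In that of WT replicate 2, Abcc5 is low and the neuron markers are raised. In that of WT replicate 1, Abcg2 is high beside the vascular and macrophage markers.

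The genes nearest to a member were found for the 3 members with the largest SD over arrays, by the root mean square difference of centred log2 values over the 6 arrays among 13536 genes. Nearest to Abcc4 were Kif1c (0.07), Hoatz (0.08) and Mycbp (0.09). Nearest to Slco1a5 were Rrbp1 (0.08), Slc28a3 (0.14), a sodium-coupled nucleoside carrier, and Epb41l5 (0.14). Nearest to Abcg2 were Igfbp5 (0.11), Fli1 (0.12), a transcription factor of endothelium and blood cells, and Stom (0.13). Between members, Slco1a5 lay 0.28 from Abcc1, 0.32 from Slc15a2 and 0.33 from Slc29a4, and 0.92 from Abcg2, while Abcg2 lay 0.33 from Slco2b1. With so few arrays, near patterns are common among so many genes, and these distances are a description.

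Related transporters and enzymes were read from lists of genes. Of 12 other SLCO genes 7 were tested, and 0 passed the threshold by description or title. Slco1c1, the carrier of thyroxine, and Slco1a4, which carries bile acids and steroid conjugates, lay at the 98.4 and 97.8 percentiles, above all 3 SLCO members, with differences of -0.24 and -0.31 by description. Slco4a1 and Slco5a1 had the largest differences, -0.72 and 0.51 by description and 0.96 and -0.01 by title. Of 19 other SLC22 genes found, 12 were tested and 0 passed, with a median of 0.16 by description. Slc22a17, a receptor for lipocalin, lay at the 99.0 percentile and Slc22a5, the carnitine carrier, at 91.5, and Slc22a23 and Slc22a2 differed by 0.63 and -0.57.

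Of 16 other ABC genes, from subfamilies B, C and G, 9 were tested and 0 passed, with 6 lower by description. Abcg1, which exports sterols, lay at the 87.0 percentile, and Abcb1a, the P-glycoprotein of capillary endothelium, at 78.1. Abcb1a differed by -0.81 by description and 0.48 by title, with 11.09 in WT replicate 1 and 8.17 to 9.28 elsewhere, the same array in which Abcg2 was highest. Abcg5 differed by -0.64. Of 9 other peptide, nucleoside and cation carriers found, 5 were tested and 0 passed. Slc47a1, a proton exchanger for organic cations, differed by -1.02 by description and 0.30 by title, at 11.74 in WT replicate 1 and 7.30 in RAG-/- replicate 2. Slc28a3 lay at the 73.5 percentile, and Slc15a4 differed by 0.25.

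Of 20 conjugation and glutathione genes found, 19 were tested and 0 passed, 9 higher and 10 lower by description, with a median of -0.02. Gsta4 and Ephx1, which detoxify lipid aldehydes and epoxides, lay at the 98.3 and 98.0 percentiles and differed by 0.02 and -0.23. Cyp1b1, an oxidase of drugs and steroids, differed by -1.31 (unadjusted p = 0.0579) by description and -0.20 by title, and Sult1a1 by -0.42. Of 10 xenobiotic sensing factors found, 6 were tested and 0 passed, with a median of -0.16. Nfe2l2, the factor that induces glutathione genes, lay at the 93.2 percentile and differed by -0.32 under both readings, its inhibitor Keap1 lay at 86.7 and differed by 0.00, and Arnt, the partner of Ahr, differed by -0.29. By description 0 members of these 6 lists had an unadjusted p under 0.05, and 0 by title.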

How the data were processed

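The deposited table held linear intensities, 1 for each of 45101 probe sets on every array. What software or normalization the authors used is not given in the sources. Each array's mean, with 2% of probe sets trimmed at either end and controls removed, was 497.1 to 497.5, so the authors' deposited intensities had been brought to a common scale per array. After removal of 64 control probe sets, intensities became log2(intensity + 16), which understates fold changes of dim probe sets. The upper quartiles of the arrays spanned 0.232, over a limit of 0.2, so arrays were quantile normalized. The dimmest 40% of probe sets by mean were dropped, leaving 27022. The brightest probe set stood for a gene, and percentiles were averaged over the arrays.

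Of 45037 probe sets, 34945 had a single symbol, 932 several and 9160 none here. Of the first kind 34741 matched RefSeq genes (GRCm38.p6), whose symbols were used for the lists.

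Testing used limma 3.58.1 in R 4.3.3 (lmFit, eBayes with trend, two-sided, Benjamini-Hochberg over all probe sets kept, threshold 0.05), tested on simulated data. The main fit had no block. Arrays sharing a title code deviated together from their group means by description (correlations of 0.29, 0.39 and 0.58, against -0.42 to 0.01 for other combinations), so the codes were taken as pairs and a blocked fit was added. Centring on group means ties positive correlations within pairs to negative ones elsewhere, so these values are not independent of each other. Members and lists were chosen with earlier results of these data known. Besides members and label checks, the genes named are, from each list, the 2 with the highest percentile, the 2 with the largest difference by description and any past the threshold, and the 3 nearest to each of the 3 most variable members. The probe sets of Abcc5 and Slc29a4 without group overlap, Pttg1, and Abcb1a and Slc47a1 by array were singled out after their values were seen.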

Additional observations from a re-analysis of the deposited data

How the results depend on the processing

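The count of members past the threshold, 0 of 10, was 0 under every alternative that was run, by description and by title. Those were values as deposited, a common median, pseudocounts of 1 and 64, no filter on dim probe sets, the pair as a replicate block, pair 1 left out, each array left out, and the mean of a gene's probe sets, which left 8 of 10 genes over the filter. The count over all probe sets was 0 to 4 by description with 1 array left out, and 1 by title with the replicate block. The 4 arose without RAG-/- replicate 2, and were Xist and 3 unnamed probe sets. The unnamed sets followed the arrays as Eif2s3y did, at 9.73 to 12.51 in RAG-/- replicates 1 and 3 and 4.07 to 5.60 elsewhere. Xist was lower in those 2 arrays (9.04 and 7.43) than elsewhere (12.20 to 13.19). Over 161 recomputed differences of members, 145 kept their sign and 16 did not. With an array left out, differences by description ran from -0.69 to 0.33 for Slco1a5, -0.40 to 0.22 for Slco2b1, -0.62 to 0.09 for Abcc1, -0.79 to 0.31 for Abcc4, -0.59 to 0.11 for Abcg2, -0.49 to 0.10 for Slc15a2 and -0.31 to 0.29 for Slc29a4. Those of Slc22a8 (-1.02 to -0.32), Slco2a1 (-0.57 to -0.35) and Abcc5 (0.03 to 0.66) kept their sign. By title, with or without the replicate block, Slco2b1 turned to 0.23 and Abcg2 to 0.16, which is by construction, since pair 1 changes sides. With pair 1 left out Slco2b1 was 0.03, and with the mean of probe sets Slco1a5 was 0.53, where its dim probe set enters. The block changed no call of a member. With all probe sets of a gene averaged, the mean percentile was 95.9 for Slc29a4, 86.5 for Slc15a2, 81.2 for Slc22a8 and 70.6 for Abcc1. It was 58.6 for Slco1a5, 54.6 for Abcc5, 42.0 for Slco2a1 and 40.9 for Slco2b1, while Abcc4 and Abcg2, with 1 probe set each, kept theirs. No background level was measured, so what it adds to dim probe sets is unknown.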
